A study of Rattus norvegicus with 14 samples.

Results

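Neuronal microtubule and growth cone genes were followed in cultured rat hippocampal cells given allopregnanolone (Allo) or vehicle. The set was fixed by name and has 10 genes: Map2, Mapt, Map1a, Map1b, Dcx, Stmn2, Gap43, Tubb3, Clasp2 and Nefl. All 10 are listed among the 18239 genes of the neuron table and among the 31791 of the astrocyte table. RNA was sequenced from primary hippocampal neurons and astrocytes of Sprague Dawley rat fetuses at embryonic day 18. Every culture was in the supplement-reduced Aging Model (AM) medium of the study, so AM is shared by both groups and no library is from full medium. Neurons were in AM medium from day 10 of culture for 4 h and then received vehicle (AM-Veh, 0.001% ethanol) or 100 nM Allo (AM-Allo) for 16 h. Astrocytes, enriched from mixed glia by shaking, were in AM medium for 24 h and then received vehicle or 100 nM Allo for 24 h. There were 4 libraries for each neuron group, numbered 1-1, 1-2, 2-1 and 2-2, and 3 for each astrocyte group. The labels do not say whether these were separate cultures, so p-values measure only the spread between libraries, which may be technical.

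Microtubules are hollow polymers of tubulin that run the length of axons and dendrites. Microtubule-associated proteins bind and space them, plus-end proteins steer their growing tips, and stathmins bind free tubulin and promote disassembly. A growing neurite ends in a growth cone, whose membrane carries GAP43. Doublecortin (Dcx) marks young migrating neurons, while neurofilaments thicken axons as neurons mature. Allo is a neurosteroid that prolongs opening of the GABA-A receptor. The comparison of AM-Allo with AM-Veh asks how it acts on neurons and astrocytes in a model of an aged environment.

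The sequences shown are those just before the start sites of Tubb3 and Map1b, because these neuronal genes contrasted between the cultures: Tubb3 stood at a fraction of a percent of its neuron level in astrocytes, whereas Map1b was higher there. RefSeq sequence of the GRCr8 assembly gave an entry for 6 of the 10 genes (Map2, Map1a, Map1b, Dcx, Tubb3 and Clasp2). GRCr8 is used for these windows alone, since the authors counted reads on another annotation. Each window is the 250 bases before the listed start, read 5′ to 3′ on the strand of the gene. Tubb3 (chr19:68365437-68365686, + strand) and Map1b (chr2:32644472-32644721, − strand) start at the outer end of their genes. The windows of Map2, Dcx, Clasp2 and Map1a lie 173652, 66130, 73126 and 5788 bases inside the outer end and are not printed. Capitals mark the motifs found.
Tubb3: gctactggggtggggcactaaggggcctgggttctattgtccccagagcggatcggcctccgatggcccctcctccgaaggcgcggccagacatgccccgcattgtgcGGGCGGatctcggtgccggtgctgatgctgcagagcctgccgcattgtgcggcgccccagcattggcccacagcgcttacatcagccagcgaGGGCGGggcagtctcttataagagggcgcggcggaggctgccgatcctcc
Map1b: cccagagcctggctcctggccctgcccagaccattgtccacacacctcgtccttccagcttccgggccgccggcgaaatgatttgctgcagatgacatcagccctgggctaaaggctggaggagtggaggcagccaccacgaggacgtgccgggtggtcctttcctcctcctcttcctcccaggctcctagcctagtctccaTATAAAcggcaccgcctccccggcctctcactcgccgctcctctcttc
Motifs were searched on both strands. The TATA box, which positions transcription at some promoters, was searched as TATAAA. The GC box, a site of the Sp family, was searched as GGGCGG. The cyclic AMP response element (CRE) was searched by its half-site, written TGACG here. The full CRE, TGACGTCA, contains that half-site. The Tubb3 window held GGGCGG beginning at −142 and at −50 from the start, and the Map1b window held TATAAA beginning at −48. Of 33469 rat promoter windows, 12.9% held the TATA box, 30.5% the GC box, 18.2% the half-site and 1.59% the full CRE. Among the 6 windows, 3 held the TATA box, 2 the GC box, 1 the half-site and 0 the full CRE. Tubb3 had a GC content of 68% with 21 CpG and Map1b 63.6% with 13 CpG, against medians of 51.2% and 5 over all windows. A motif match describes the letters in these windows and is not a binding site.

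In neuron cultures every gene of the set was well measured. Values are normalized counts, the estimated reads of a gene after scaling between libraries by the authors. Transcript lengths were not used here, so levels are compared between samples and never between genes. AM-Veh means ± SD (n = 4) were 24729 ± 682 for Map2, a dendritic microtubule-associated protein, and 15762 ± 709 for Mapt, which encodes the axonal protein tau. They were 13176 ± 282 for Map1a, the form of the MAP1 family that rises with maturity, and 19383 ± 1288 for Map1b, its counterpart in growing neurites. The young-neuron genes were also present, with 12383 ± 449 for Dcx, 9470 ± 668 for Stmn2, a neuronal stathmin, and 9763 ± 721 for Gap43. The beta-tubulin of neurons, Tubb3, had 9014 ± 484, the plus-end protein Clasp2 10899 ± 294 and the neurofilament light chain Nefl 2314 ± 221. The spread within AM-Veh was 2.14% of the mean for Map1a and 9.56% for Nefl, the lowest and the highest of the 10.

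**Figure D1:**
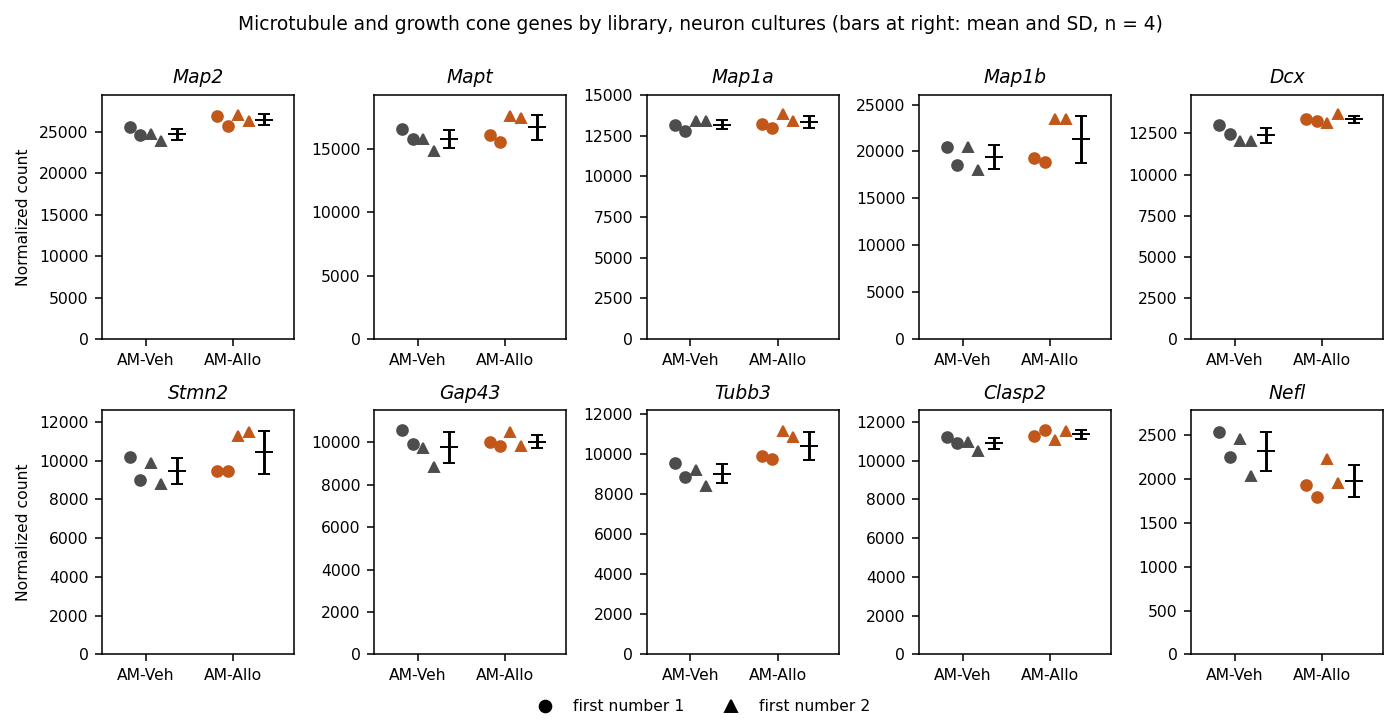
Normalized counts (y axes, from 0) of the 10 genes in the 4 AM-Veh and 4 AM-Allo neuron libraries; circles have first number 1, triangles first number 2, and bars give the mean and SD. For Tubb3 all AM-Allo libraries (9744 to 11139) lie above all AM-Veh libraries (8417 to 9551), and for Nefl AM-Allo libraries tend lower but overlap (1795 to 2223 against 2037 to 2531).

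Markers of young and of more mature neurons were found together with these genes. Over the 8 neuron libraries the immature markers Tubb2b, Dpysl3 and Stmn1 had means of 57237, 11173 and 7864, and Neurod6 had 1534. Tbr1, Neurod1 and Dlx2, also immature markers, had 216, 113 and 23.1. Among mature markers, Syt1, Syp and Gabra2 had 3994, 3279 and 2419, and Slc17a7 had 2186. Rbfox3 (NeuN) had 460 and the heavy neurofilament Nefh 113. Snap25 was not analysed here. The neuron cultures also carried glial transcripts: the summed 12 astrocyte markers ranged from 248889 to 300429 in AM-Veh and from 249776 to 293401 in AM-Allo, led by Gfap, Slc1a3 and Glul with means of 92703, 60035 and 30758. The summed oligodendrocyte lineage markers were 52725 to 56767 and 53850 to 60834, and proliferation markers such as Mki67 (mean 1125) were present. Of 7 microglial markers, Cx3cr1, P2ry12, C1qc, Aif1 and Csf1r had means of 2.16, 2.39, 2.78, 2.88 and 6.18. Tmem119 had 17.5 and Cd68 had 102. In such bulk samples, fewer neurons and less RNA per neuron cannot be told apart.

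Within a library, a ratio of genes does not depend on the scaling between libraries. The ratio of Nefl to Dcx, a neurofilament of maturing axons against a gene of young neurons, was 0.195, 0.180, 0.203 and 0.169 in AM-Veh and 0.144, 0.135, 0.170 and 0.143 in AM-Allo (libraries 1-1, 1-2, 2-1 and 2-2). It was lower with Allo at every number, and the ranges overlapped only where AM-Veh 2-2 and AM-Allo 2-1 met. The ratio of Map1a to Map1b was 0.682 ± 0.0447 in AM-Veh and 0.632 ± 0.0611 in AM-Allo (SD, n = 4). With Allo it was 0.684 and 0.685 at first number 1 but 0.591 and 0.569 at first number 2. The ratio of Mapt to Map2 was 0.637 ± 0.0114 and 0.630 ± 0.0326 (SD, n = 4). It was lower with Allo at first number 1, from 0.649 to 0.598 and from 0.641 to 0.607, and higher at first number 2, from 0.638 to 0.652 and from 0.622 to 0.664. These ratios are descriptions, with no test.

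**Figure D2:**
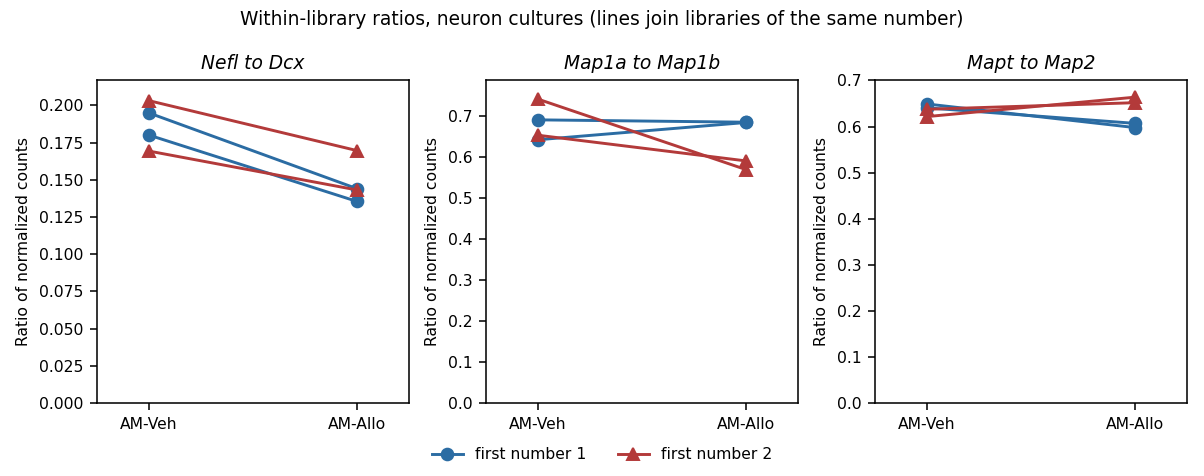
Ratios of normalized counts within each neuron library for 3 gene pairs (y axes, from 0), AM-Veh at left and AM-Allo at right; lines join libraries of the same number, with circles for first number 1 and triangles for first number 2. The ratio of Nefl to Dcx is lower with Allo on all 4 lines. That of Map1a to Map1b is lower on both lines of first number 2 and slightly on line 1-2 (0.691 to 0.685), and higher on line 1-1.

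In astrocyte cultures the set divided. Nefl, Tubb3, Dcx, Mapt and Gap43 stood at a small share of the neuron level, whereas Map1a was moderately below it and Map1b and Stmn2 were above it. Neurons and astrocytes were scaled in separate tables. They are therefore set side by side without a test, as counts per 1000000 counts listed for a library (CPM). Nefl in AM-Veh astrocytes was 0.0674% of its AM-Veh neuron level, Tubb3 0.332%, Dcx 0.854%, Mapt 1.09% and Gap43 1.31%. Map2 stood at 14.5%, Clasp2 at 32.9% and Map1a at 75.0%. Map1b reached 136%, with 1190.3 ± 26.6 CPM in astrocytes (SD, n = 3) and 875 ± 59.3 CPM in neurons (SD, n = 4). Stmn2 reached 214%, with 913 ± 13.97 and 427 ± 31.2 CPM. The ranges of both genes did not overlap between the cell types on this scale. How many of all genes had no such overlap was not counted.

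**Figure D3:**
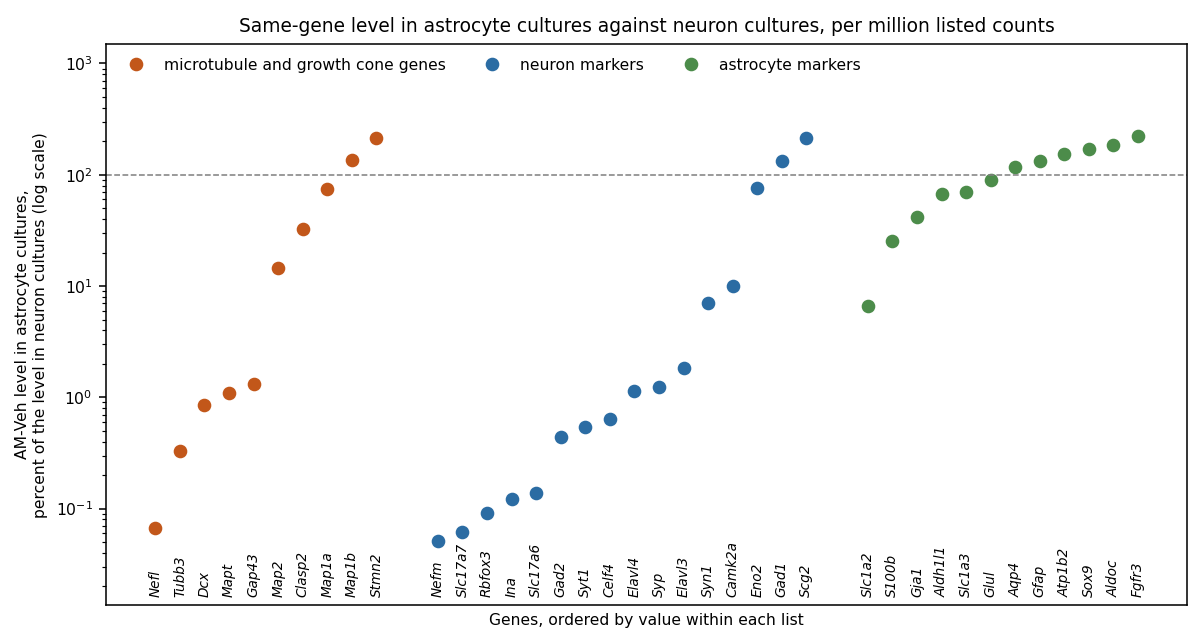
Level of each gene in AM-Veh astrocyte cultures as a percent of its level in AM-Veh neuron cultures, both in CPM (y axis, log scale); the dashed line marks 100 percent, and Slc32a1, at 0, is not drawn. The set runs from Nefl at 0.0674 percent to Stmn2 at 214 percent, the neuron markers have a median of 0.634 percent and the astrocyte markers of 103 percent.

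The presence of residual neurons in the astrocyte cultures was read from markers outside the set. Of 17 neuron markers listed in both tables, 9 were under 1% of their neuron level, with a median of 0.634%. NeuN (Rbfox3) was at 0.0911%, the vesicular glutamate transporter Slc17a7 at 0.0619% and the vesicular GABA transporter Slc32a1 at 0% in AM-Veh. Over the 6 astrocyte libraries Rbfox3 ranged from 0 to 4.995 normalized counts and Slc32a1 from 0 to 1.07. The neurofilament Nefm had a mean of 0.919. Among the markers, Scg2 at 214%, Gad1 at 134% and Eno2 at 75.3% stood highest, as Stmn2, Map1b and Map1a were in the set. Immature neuron markers stood higher, with a median of 15.9% of the neuron level over 15 genes. Of these, 3 were at or above 100% (Cd24 at 196%, Slc12a2 at 175% and Igfbpl1 at 112%). Another 3 were below 1% (Neurod2 at 0.159%, Neurod6 at 0.0433% and Tbr1 at 0% in AM-Veh). The astrocyte markers Gfap, Slc1a3 and Aqp4 had means of 134664, 44643 and 31943. Of the fibroblast and endothelial markers, the collagens Col1a2, Col1a1 and Col3a1 had 29729, 23823 and 9116. Pdgfrb had 3992 and Kdr 554, whereas Dcn, Lum, Cdh5 and Cldn5 had 4.73, 9.52, 9.51 and 0. The microglial gene Csf1r had 316. The sources of Stmn2, Map1b and Map1a among the cells of these cultures were not tested.

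**Figure D4:**
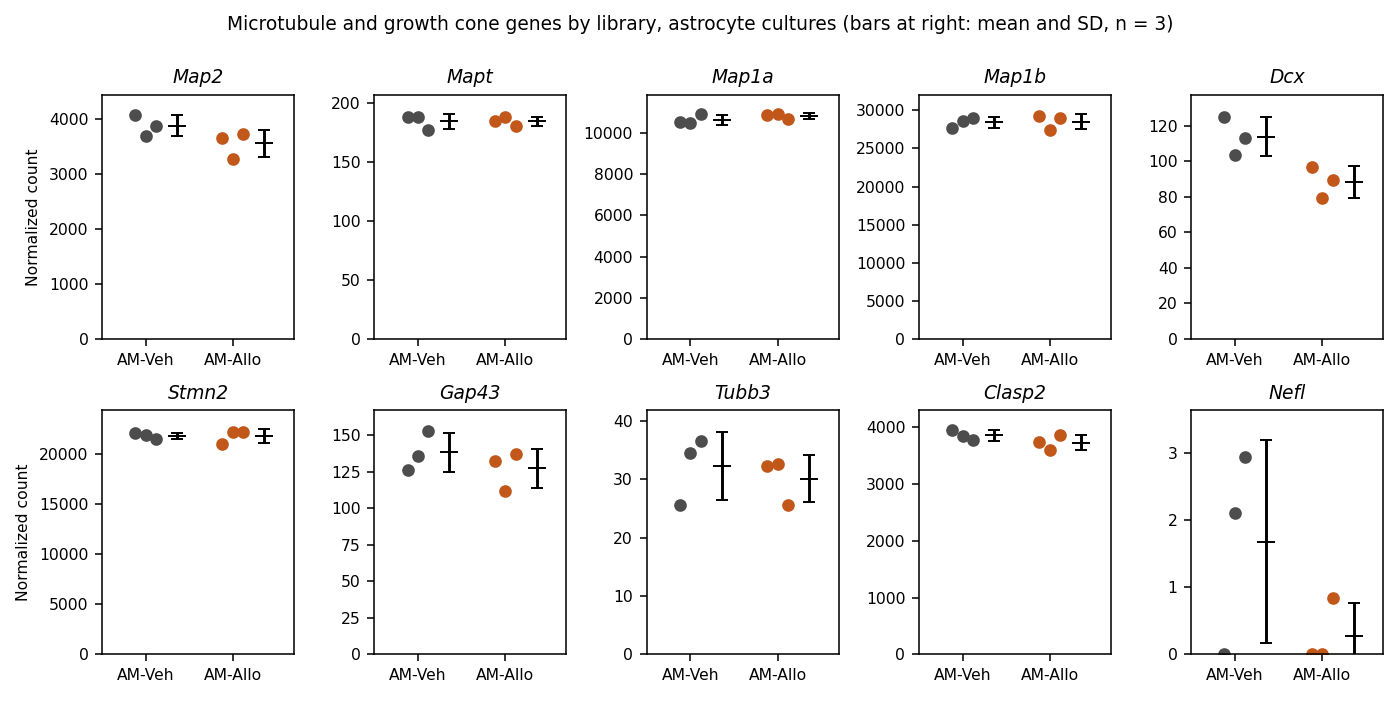
Normalized counts (y axes, from 0) of the 10 genes in the 3 AM-Veh and 3 AM-Allo astrocyte libraries, with mean and SD as bars at the right of each panel. Dcx in AM-Allo (79.2 to 96.9) lies below AM-Veh (103 to 125), the other tested genes overlap, and Nefl is at 0 to 2.94.

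With Allo, 9 of the 10 genes were higher and Nefl was lower in neurons, by small amounts that did not pass the test after adjustment. Differences are given in log2(normalized count + 1) and tested with limma, with Benjamini-Hochberg adjustment over the 15314 genes with a mean of at least 10 normalized counts. After adjustment 0 of the 10 genes and 4 genes in all (0.0261%) passed a p of 0.05. At an unadjusted p under 0.05, 4 of the 10 were called, where 5.69% of all genes tested were. The count was 7 without AM-Allo 1-2, where leaving out any 1 library called 680 to 968 of all genes. Tubb3, Dcx and Map2 were higher (3.21% of all genes) and Nefl was lower (2.48%). The median difference of the 10 was 0.092, against −0.0015 over all genes tested, of which 49.2% were higher. Groups did not overlap for Tubb3, Dcx and Map2, all higher, where 2.06% of all genes had no overlap and were higher. Shares are compared with those of all genes only as a description, since genes of a set are not independent. Of 17 neuron markers outside the set, 9 were higher and 8 lower with Allo (median 0.044). At an unadjusted p under 0.05 by limma, 3 were higher and 1 was lower, where 3.21% and 2.48% of all genes were. Of 15 immature and 15 mature neuron markers, 11 and 10 were higher (medians 0.056 and 0.085). The mature list as used includes Mbp, which is also in the oligodendrocyte lineage list. Markers of other cells varied by list. Higher with Allo were 9 of 10 oligodendrocyte lineage (median 0.081) and 8 of 8 proliferation markers (median 0.079). Lower, by less, were 9 of 12 astrocyte markers (median −0.020) and 6 of 9 neural progenitor markers (median −0.036). AM-Allo 1-1 stood apart in summed fibroblast and endothelial markers, with 2595 normalized counts against 677 to 1495 in the other 7 libraries. Without it, 5 of the 10 genes had an unadjusted p under 0.05 by limma, beside that range of 680 to 968 of all genes. Without AM-Allo 1-1, 0 of the 10 genes and 0 genes in all passed the adjusted p. The part of these markers in the result was not tested.

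Tubb3 had the largest positive difference. It had 9551, 8879, 9211 and 8417 normalized counts in AM-Veh and 9883, 9744, 11139 and 10857 in AM-Allo, so the highest vehicle library lay below the lowest Allo library. The difference was 0.21 (SE 0.053, 95% interval 0.089 to 0.32), or 1.15-fold, with an unadjusted p of 0.00271 and an adjusted p of 0.539 by limma. The two-sided exact permutation p was 0.0286, the smallest that 4 libraries against 4 can give. Neuron libraries grouped by first number, while pairing by the whole number could not be told. With a block by first number the adjusted p for Tubb3 was 0.0440 by limma, past the threshold, with 0.679% of all genes passing. With a block by the whole number it was 0.0460 (0.607% of all genes). On the variance-stabilized values of the authors, Tubb3 (0.0421) and Dcx (0.0434) passed by limma, where 1.03% of all genes did, and 7 of the 10 genes had an unadjusted p under 0.05, where 14.4% had. Over 20 alternatives the adjusted p of Tubb3 ranged from 0.00147 to 0.999.

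Dcx and Map2 were higher as well. Dcx had 12987, 12462, 12050 and 12033 in AM-Veh and 13377, 13254, 13107 and 13662 in AM-Allo. Its difference was 0.11 (SE 0.033, 95% interval 0.037 to 0.18), with an unadjusted p of 0.00718 and an adjusted p of 0.650 by limma. Map2 had 25576, 24671, 24761 and 23908 in AM-Veh and 26990, 25684, 27068 and 26312 in AM-Allo. For Map2 the difference was 0.10 (SE 0.033, 95% interval 0.028 to 0.17), with an unadjusted p of 0.0113 and an adjusted p of 0.677 by limma. The groups did not overlap for either gene, and both were higher with Allo at all 4 numbers.

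Nefl was the only gene of the 10 that was lower on average. It had 2531, 2243, 2447 and 2037 in AM-Veh and 1926, 1795, 2223 and 1955 in AM-Allo. The AM-Allo libraries were lower at all 4 numbers, yet the groups overlapped because AM-Veh 2-2 lay below AM-Allo 2-1. The difference was −0.23 (SE 0.077, 95% interval −0.40 to −0.057), with an unadjusted p of 0.0137 and an adjusted p of 0.712 by limma. Within a library the ratio of Nefl to Nefm, the medium neurofilament chain, was 1.96 ± 0.142 in AM-Veh and 1.79 ± 0.0881 in AM-Allo (SD, n = 4). Nefm itself differed by −0.099 (SE 0.093), with overlap, and 0 of 8 other neurofilament and intermediate filament genes reached an unadjusted p under 0.05, 3 higher and 5 lower. The smallest p among them were those of the alpha-internexin gene Ina (0.064) and of peripherin, Prph (0.30), both positive and overlapping.

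The remaining 6 genes overlapped between the groups. Map1b had 20480, 18510, 20493 and 18048 in AM-Veh and 19297, 18892, 23447 and 23502 in AM-Allo, with a difference of 0.13 (SE 0.079) and an unadjusted p of 0.130 by limma. Stmn2 had 10177, 9007, 9892 and 8802 in AM-Veh and 9487, 9477, 11279 and 11475 in AM-Allo, with 0.14 (SE 0.073) and an unadjusted p of 0.0925 by limma. For both, only the AM-Allo libraries of first number 2 stood above the AM-Veh range. Mapt had 16596, 15805, 15786 and 14862 in AM-Veh and 16132, 15586, 17643 and 17465 in AM-Allo, with 0.083 (SE 0.048). Clasp2 differed by 0.061 (SE 0.031) and was higher at all 4 numbers. Gap43 had 10572, 9925, 9732 and 8826 in AM-Veh and 10000, 9848, 10497 and 9809 in AM-Allo, a difference of 0.043 (95% interval −0.069 to 0.15). Map1a differed by 0.018 (95% interval −0.051 to 0.087). With the block by first number, Clasp2 (unadjusted p of 0.0246), Stmn2 (0.0256) and Map1b (0.0332) joined the 4 genes under an unadjusted p of 0.05 by limma, where 11.0% of all genes tested were. With the block by whole number 7 of the 10 were under it as well, against 10.7% of all genes.

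The difference with Allo was more positive at first number 2 for all 10 genes, as for 48.0% of all genes tested. At first number 1, Mapt, Map1b, Stmn2 and Gap43 differed by −0.030, −0.028, −0.014 and −0.046, and at first number 2 by 0.20, 0.29, 0.29 and 0.13. Tubb3 differed by 0.092 and then 0.32, without overlap within either first number. Nefl differed by −0.36 at first number 1, without overlap, and by −0.099 at first number 2, with overlap. The test of this change of the difference (an interaction term in limma) gave an unadjusted p under 0.05 for 6 of the 10 genes, all with a positive change, where 9.53% of all genes tested were called and 5.44% with a positive change. The changes were 0.23 for Mapt, 0.32 for Map1b, 0.30 for Stmn2, 0.23 for Tubb3, 0.18 for Gap43 and 0.26 for Nefl. Their unadjusted p by limma ranged from 0.000349 for Mapt to 0.0381 for Nefl. After adjustment 0 of the 10 and 0.0784% of all genes passed, and the lowest adjusted p was 0.134 for Mapt by limma. Without AM-Veh 2-1, Mapt, Map1b, Stmn2 and Tubb3 passed it, and without AM-Veh 1-2, Map1b and Stmn2. The first numbers were also tested apart by limma, each with only 2 AM-Veh against 2 AM-Allo libraries. First number 1 gave 1 of the 10 past the adjusted p (Nefl, 0.0329, with 0.229% of all genes). First number 2 gave 5 (Mapt, Map1b, Dcx, Stmn2 and Tubb3, with 1.73% of all genes), and 7 of the 10 were under an unadjusted p of 0.05 (12.6% of all genes). For Map2, Dcx, Map1a and Clasp2 the changes between first numbers were 0.066, 0.087, 0.013 and 0.027.

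**Figure D5:**
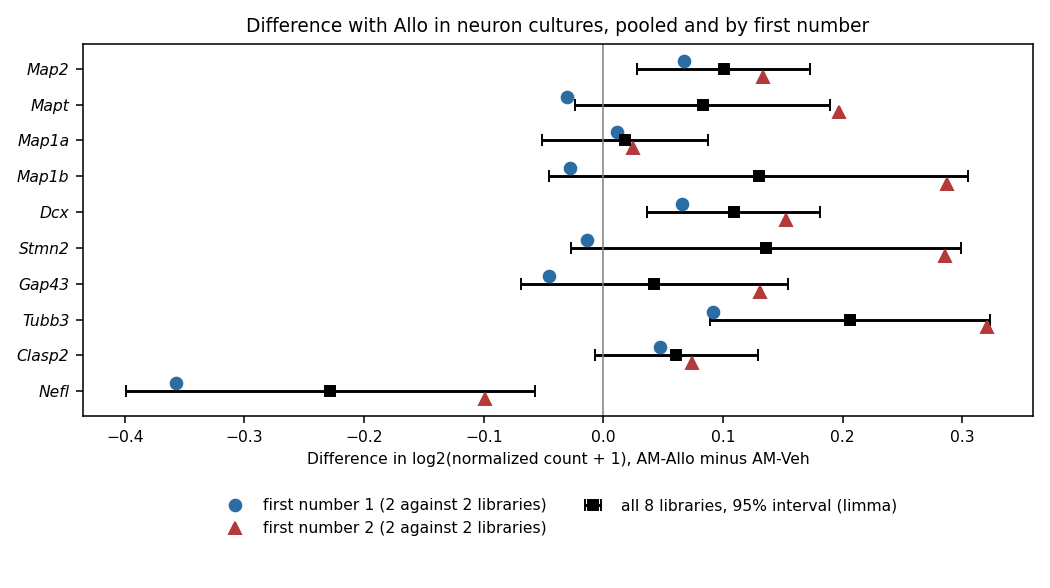
Difference in log2(normalized count + 1), AM-Allo minus AM-Veh, in neuron cultures (x axis) for each gene; squares with 95% intervals use all 8 libraries, circles the libraries of first number 1 and triangles those of first number 2. For each gene the triangle lies to the right of the circle, by the most for Map1b (0.32).

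Neuron markers differed by first number in the same direction as the 10 genes. In the same interaction test, 17 of 17 had a more positive difference at first number 2 (48.0% of all genes), with a median of 0.30, and 12 had an unadjusted p under 0.05 (5.44% of all genes with that direction). Of 12 astrocyte markers 10 went the other way, with a median of −0.095, as did 7 of 10 oligodendrocyte lineage and 6 of 8 proliferation markers. The part of these markers in the result was not tested. Growth cone and microtubule genes outside the set varied by list. Of 31 growth cone proteins 25 had a more positive difference at first number 2, 10 of them at an unadjusted p under 0.05 (5.44% of all genes). Of these Ncam1 was at 0.21 and Dpysl5, which encodes a collapsin response mediator protein, passed the adjusted p (0.36, adjusted p of 0.0388 by limma). Of 14 stathmins and severing factors 8 were more positive, with the smallest p for Stmn3 (0.28) and Stmn1 (0.32), which did not pass the adjusted test. Of 22 motors 16 were more positive, led by the dynein chain Dync1i1 (0.42) and the kinesin Kif5a (0.36). Of 19 kinases 14 were, led by Cdk5r2 (0.58) and Cdk5r1 (0.21), which encode activators of the neuronal kinase CDK5. Of 8 neurofilaments and other intermediate filaments 4 were more positive, with the smallest p for Nefm (0.33) and Ina (0.13). Tubulins divided, 7 more positive and 8 more negative (smallest p for Tubg2, 0.80, and Tubb5, 0.13). Other microtubule-associated proteins divided too, 14 and 11 (Dclk2, −0.23, and Map9, 0.28). Of 15 tubulin-modifying enzymes 11 were more positive, and 1, the deglutamylase Agtpbp1 (0.26), had an unadjusted p under 0.05, with Sirt2 (−0.081) next.

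The labels give no meaning for the first number, and 17.2% of all genes passed an adjusted p of 0.05 between first number 2 and first number 1, with treatment in the fit. None of the 10 genes passed it in that comparison by limma, and 2 (Map1b with 0.14 and Map1a with 0.052) had an unadjusted p under 0.05, where 29.3% of all genes had. Map1a had no overlap between the first numbers, where 19.6% of all genes had none. Without AM-Veh 1-1 or without AM-Veh 2-2, Map1b and Stmn2 passed the adjusted p. Other microtubule and growth cone genes passed the adjusted p between the first numbers, at shares to be read against 17.2% of all genes. At first number 2, Tuba1c (0.47), Tuba4a (0.34) and Tubb6 (0.33) rose and Tubb2b (−0.095) fell among 15 tubulins. Of 25 other microtubule-associated proteins 5 were called: Dclk1 (0.33), a doublecortin-like kinase, Map4 (0.20), Clip2 (0.12) and Clip1 (0.11) rose, and the plus-end protein Mapre1 (−0.099) fell. Of 31 growth cone proteins 11 were called. Marcksl1 (0.16), Nrp2 (0.18) and Robo2 (0.15) rose, and Marcks (−0.14), Plxna2 (−0.16), Robo1 (−0.23), Cntn1 (−0.10), Dpysl3 (−0.10), Dcc (−0.18), Nav2 (−0.097) and Plxna1 (−0.076) fell. Of 14 stathmins and severing or depolymerizing factors 3 fell, Kif2c (−0.50), Fign (−0.65) and Kif18b (−0.41). Among 22 motors Kif1b (0.080) and Kif21a (0.12) rose and Kif21b (−0.13) fell. Among 19 kinases Mark3 (−0.13) fell, and Ttbk1 (−0.11) did not pass. Of 15 tubulin-modifying enzymes 0 passed the adjusted p by limma and 2, Ttll5 (−0.17) and Atat1 (−0.071), had an unadjusted p under 0.05. The glial and progenitor filaments Gfap (0.62), Vim (0.49) and Nes (0.37) rose at first number 2 as well, while 8 of 8 proliferation markers were lower, 6 of them past the adjusted p. Their part in the values of the 10 genes was not tested.

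In astrocytes, Allo was compared with vehicle for 9 of the 10 genes. Nefl, at 0, 2.11 and 2.94 in AM-Veh and 0, 0 and 0.838 in AM-Allo, had a mean under 10 and was not tested. None of the 9 passed an adjusted p of 0.05 (1 gene in all, 0.00650%), and 2 were lower at an unadjusted p under 0.05, where 7.01% of all genes tested were called and 3.29% were lower. Of the 9 genes 7 were lower at any p, where 50.7% of all genes were higher. Dcx had 125, 103 and 113 in AM-Veh and 96.9, 79.2 and 89.3 in AM-Allo, without overlap, where 6.07% of all genes had no overlap and were lower. Its difference was −0.36 (SE 0.15, 95% interval −0.68 to −0.041), with an unadjusted p of 0.0300 and an adjusted p of 0.684 by limma. The exact permutation p was 0.1, the smallest that 3 libraries against 3 can give. Map2 had 4066, 3681 and 3871 in AM-Veh and 3656, 3268 and 3728 in AM-Allo, with overlap, a difference of −0.13 (SE 0.052) and an unadjusted p of 0.0299 by limma. Neither gene kept an unadjusted p under 0.05 without AM-Veh 1, without AM-Veh 3 or without AM-Allo 2.

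The genes abundant in astrocyte cultures differed little. Stmn2 had 22059, 21838 and 21474 in AM-Veh and 20946, 22148 and 22152 in AM-Allo, a difference of −0.0032 (95% interval −0.078 to 0.072). Map1b had 27668, 28556 and 29035 in AM-Veh and 29254, 27371 and 28991 in AM-Allo, a difference of 0.0057 (95% interval −0.075 to 0.086), which turned negative under upper-quartile scaling and quantile normalization. Map1a differed by 0.023 (95% interval −0.048 to 0.093). Clasp2 differed by −0.050 (95% interval −0.13 to 0.033). For the scarce genes the intervals were wider, with −0.12 (−0.41 to 0.17) for Gap43, −0.0014 (−0.22 to 0.22) for Mapt and −0.087 (−0.63 to 0.45) for Tubb3, whose mean was 32.2 normalized counts in AM-Veh. Of 9 neuron markers tested in astrocytes, 4 were higher and 5 lower with Allo, and 1 (Scg2, −0.14) had an unadjusted p under 0.05. Of 8 mature neuron markers tested 6 were lower, and of 12 astrocyte markers 9 were lower, 3 of these at an unadjusted p under 0.05. Their part in the Dcx and Map2 values was not tested.

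Other genes of the microtubule and growth cone were read from lists, each described by its counts. These are set against all genes tested, of which 5.69% had an unadjusted p under 0.05 and 49.2% were higher with Allo in neurons. In neurons none of them passed an adjusted p of 0.05 for Allo. Of 15 tubulins, 8 were higher and 7 lower, with a median of 0.0053, and 3 had an unadjusted p under 0.05. The tubulin Tubb4a had the smallest p of these, from 7954 ± 294 to 9089 ± 266 (SD, n = 4), a difference of 0.19 without overlap (unadjusted p of 0.000243 and adjusted p of 0.217 by limma). Tuba1b differed by 0.082, also without overlap. Of 25 other microtubule-associated proteins, 16 were higher and 2 had an unadjusted p under 0.05, the tubulin polymerization-promoting protein Tppp (0.22) and Map7 (0.11), a share near that of all genes.

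Factors that take microtubules apart and the enzymes that modify tubulin were mostly higher without passing the test. Of 14 stathmins and severing or depolymerizing factors, 12 were higher, with a median of 0.061, and the neuronal stathmin Stmn4 (0.16) and Fignl1 (0.48) had an unadjusted p under 0.05. Of 15 tubulin-modifying enzymes 11 were higher, among them the tubulin deacetylase Sirt2 (0.13, unadjusted p of 0.00188 by limma, without overlap) and Vash2 (0.19). Of 31 growth cone proteins 26 were higher, with a median of 0.050, and 4 had an unadjusted p under 0.05, including the adhesion molecules Cntn2 (0.31, without overlap) and L1cam (0.21). Of 22 motors 15 were higher, and the kinesin-2 subunit Kif3b (0.16, unadjusted p of 0.000668 by limma) had no overlap, while Kif3c (0.11) did overlap; 3 of the 22 had an unadjusted p under 0.05. Of 19 kinases that act on these proteins 11 were higher, with a median of 0.0019, and 0 had an unadjusted p under 0.05 by limma, the smallest being those of Mark2 (−0.065) and Ttbk2 (0.097), kinases of tau and tubulin.

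In astrocytes the same lists are set against all genes tested, of which 7.01% had an unadjusted p under 0.05 and 50.7% were higher. With Allo 10 of 15 tubulins were higher (median 0.034), and Tubb2b (0.10) and Tubb5 (0.093) had an unadjusted p under 0.05 without overlap. Of 14 stathmins and severing or depolymerizing factors 10 were lower, led by the kinesin Kif19 (−0.48, from 167 to 119 normalized counts), while the severing enzyme Spast was higher (0.10). Of 24 other microtubule-associated proteins 11 were higher, and Map7d1 (0.097) and Dclk2 (0.094) had an unadjusted p under 0.05. Of 21 motors 10 were higher, with the smallest p for the kinesin Kif1c (0.094) and the dynein chain Dync1i2 (−0.072). Of 16 tubulin-modifying enzymes 7 were higher and of 18 kinases 11, with 0 in either list at an unadjusted p under 0.05 by limma. Their smallest p were those of Agbl4 (−0.52) and Svbp (0.13), and of Camk2b (0.33) and Prkca (−0.072). Of 5 neurofilaments and other intermediate filaments 4 were lower, Vim and Synm each by −0.054. Growth cone proteins divided evenly, 15 higher and 15 lower, and Basp1, a membrane protein related in function to GAP43, had the smallest p (0.19, unadjusted p of 0.000678 and adjusted p of 0.294 by limma), followed by Nav2 (0.11). Whether these counts differ between neurons and astrocytes was not tested.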

How the data were processed

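Values came from 8 neuron and 6 astrocyte libraries, grouped by the cell type, treatment and number in the labels. The authors made stranded mRNA libraries, used Salmon 0.14 for transcript abundance, tximport for gene totals and DESeq2 1.18.1 for normalization. The main unit is this normalized signal (normalized counts) as deposited, in one table per cell type. A second table deposited by the authors holds variance-stabilized values on a log2-like scale. In the neuron table of those values the means of first number 2 and 1 differed by at most 8e-09 for any gene, so it served as an alternative only for Allo and the interaction. From the step between the lowest values, libraries were estimated to hold 19700000 to 25000000 reads on genes in neurons and 22200000 to 28500000 in astrocytes, which sets the counting error of low genes. Whole reads were not recovered for nearly all genes, since 65.3% to 93.4% of low values lay within 0.15 of a whole multiple, so no count test was run.

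The tests used log2(normalized count + 1). Genes with a mean of at least 10 entered limma 3.58.1 (lmFit, eBayes with a trend) in R 4.3.3, 15314 in neurons and 15380 in astrocytes. Adjusted p-values are Benjamini-Hochberg values over those genes. The test was tried on simulated data. No library pair was identical, and Pearson's r of log2 values across genes was 0.988 to 0.994 within a cell type. After group means were removed, same-numbered AM-Veh and AM-Allo libraries had a correlation across genes of 0.296, 0.229, 0.265 and 0.273 in neurons, all over 0.1. Libraries that shared only the first number had 0.185, 0.236, 0.211 and 0.196, and those of different first numbers had negative values. The correlation thus groups libraries by first number and cannot tell whether the whole number pairs them. In astrocytes the correlation of same-numbered libraries was −0.0070 to 0.024, so there the samples share only a number.

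The genes and lists were chosen with earlier results of these data known. Named are the 10 genes, from each microtubule and growth cone list any gene past an adjusted p of 0.05 and the 2 with the smallest p, genes among the 3 most abundant of a marker list, and markers near 0. Neurod6, Tbr1, Neurod1, Dlx2, Nefh, Rbfox3 and Slc17a7 in neurons were named after their values were seen. So were Igfbpl1, Pdgfrb and Kdr in astrocytes and the difference of Nefm with Allo. Of the 10, Mapt and Clasp2 are also in a gene list that the study chose on these libraries. Alternatives were another pseudocount, filters, scalings, limma settings, blocks, first numbers apart and each library left out. Columns left unused numbered 0.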

Additional observations from a re-analysis of the deposited data

Results flagged for a closer look

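In neurons the difference with Allo was not the same at first number 1 and first number 2 for 6 of the 10 genes, by the interaction term in limma at an unadjusted p under 0.05. The difference at first number 2 minus that at first number 1 was 0.23 for Mapt, 0.32 for Map1b, 0.30 for Stmn2, 0.18 for Gap43, 0.23 for Tubb3 and 0.26 for Nefl on the log2 scale. None passed the adjusted p. The 4 AM-Allo values of Mapt, Map1b and Stmn2 fell into a lower pair at first number 1 and a higher pair at first number 2.

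Dcx differed in opposite directions in the cell types. It was higher with Allo in neurons, without overlap, and lower in astrocytes, without overlap, by −0.36 on the log2 scale. That difference between cell types was not tested, since the tables were normalized separately. For the 10 genes in neurons, 20 groups of 4 values were screened for a value far from the rest, and 0 passed Dixon's criterion. Groups of 3 in astrocytes were not screened.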

How the results depend on the processing

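In neurons, Tubb3, Dcx and Map2 kept their direction and an unadjusted p under 0.05 under all 20 alternatives, and Nefl kept its direction under all 20. The replicate block by first number gave 1684 genes at an unadjusted and 104 at an adjusted p under 0.05, with 7 and 1 of the 10 genes, and the block by whole number 1634, 93, 7 and 1. Variance-stabilized values gave 2204, 158, 7 and 2, but do not account for the removed first-number difference. First number 1 alone gave 35 genes and 1 of the 10 (Nefl) after adjustment, a median of −0.0012 and reversed signs for Mapt (−0.030), Map1b (−0.028), Stmn2 (−0.014) and Gap43 (−0.046). First number 2 alone gave 1923 and 265 genes, with 7 and 5 of the 10. The fits by a single first number had only 2 libraries against 2. The blocks changed no other adjusted call among the 10. In limma without a trend, 0 genes passed the adjusted p for Allo in neurons (904 unadjusted), for the interaction (1241) and in astrocytes (994). Leaving out 1 library gave 0 to 4 genes past the adjusted p. At an unadjusted p under 0.05 by limma it gave 680 to 968 genes and 4 to 7 of the 10 (7 without AM-Allo 1-2). Gap43 ranged from −0.0050 to 0.082.

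Between first numbers, 29.3% of all genes were called unadjusted and 17.2% adjusted in the main fit. Of the 10, upper-quartile scaling called 1, quantile normalization 4 with Mapt at −0.018, no trend 0 with 1722 genes adjusted, and robust limma 1. Leaving out 1 library gave 0 to 5 of the 10 unadjusted (3851 to 4443 of all genes) and 0 to 2 adjusted (1929 to 2527). Map2 then ranged from −0.034 to 0.0037 (0.0034 and 0.0037 reversed) and Nefl from −0.027 to 0.11 (−0.027 and −0.011 reversed). For the interaction, quantile normalization left 0 genes past the adjusted p by limma (1456 unadjusted), and leaving out 1 library gave 1 to 97 genes (6 without AM-Veh 1-1, 34 without AM-Veh 1-2), 0 to 4 of the 10 (4 without AM-Veh 2-1, 2 without AM-Veh 1-2), a median of 0.12 to 0.26 (0.15 without AM-Allo 2-1), Clasp2 from −0.0032 to 0.057 (−0.0032 and −0.0017 reversed) and Map1a from −0.012 to 0.038 (reversed at −0.012, −0.0075 and −0.0016).

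In astrocytes, 0 genes passed the adjusted p by limma with a mean of at least 50 (914 unadjusted), 4 with robust limma and 17 with the replicate block by number, whose samples share only a number. No trend called 1 of the 10, variance-stabilized values gave a median of −0.011, and Map1b was −0.0013 with upper-quartile scaling and −0.0092 with quantile normalization. Leaving out 1 library gave 1 to 72 genes past the adjusted p, and 0 to 2 of the 10 unadjusted (786 to 1280 of all genes). The median was −0.052 to −0.017 (−0.024 without AM-Allo 2). Map1b ranged from −0.014 to 0.036 (reversed at −0.014 and −0.0060) and Mapt from −0.030 to 0.014 (reversed at 0.013 and 0.014). Stmn2 ranged from −0.017 to 0.024 (reversed at 0.0057 and 0.024) and Tubb3 from −0.24 to 0.024 (reversed at 0.0096 and 0.024). The cause of these changes was not tested. Precision is limited by 4 and 3 libraries a group and, for Tubb3 and Nefl in astrocytes, by few reads.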
